A study of Rattus norvegicus with 12 samples.

Results

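The miR-129 arms are the mature small RNAs cut from a pair of hairpins, Mir129-1 and Mir129-2. All rows of the count lists whose name carries the stem miR-129 were taken, which gave 3 of 753 listed mature miRNAs: rno-miR-129-5p, rno-miR-129-1-3p and rno-miR-129-2-3p (rno, rat; left out of names from here on). Small RNA was sequenced from the right hippocampus of male Sprague Dawley rats in early adulthood, at P70 to P80, with 1 library per rat. The 4 vehicle rats (labelled Veh; animals 9, 10, 19 and 20) and the 8 ethanol rats (labelled EtOH; animals 3, 4, 7, 8, 15, 16, 23 and 24) were killed 3 h after an injection, which for the ethanol rats held 4 g/kg of ethanol in saline. The study's methods describe the tissue as dorsal hippocampus and plan 8 rats per group; 4 vehicle rats are analysed here. Whole tissue was used, so fewer cells of a type and less of a miRNA per cell cannot be told apart.

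A miRNA hairpin is cut by Drosha and Dicer into a duplex of a 5p and a 3p strand, of which 1 or both are loaded into Argonaute and pair with mRNAs through the seed, bases 2 to 8. miR-129 is a brain-enriched miRNA in mammals. Its 5p arm is known in hippocampal neurons for repressing Kcna1, a voltage-gated potassium channel subunit, under the control of mTOR, and for a part in the downscaling of synapses. The 5p arm is spelled the same at both hairpins, so a 5p read cannot be assigned to a locus. The 3p arms differ in spelling and carry the locus in their name.

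The mature sequences are shown because the 3 rows are told apart by a few bases. They come from RefSeq (table build GRCr8, 3 of 3 members matched), with the seed in capitals.
miR-129-5p: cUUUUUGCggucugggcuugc
miR-129-1-3p: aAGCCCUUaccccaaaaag
miR-129-2-3p: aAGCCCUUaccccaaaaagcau
The 3p arms share the seed AGCCCUU, which no other of the 693 mature sequences in the table has, and the seed UUUUUGC belongs to miR-129-5p alone. The annotated lengths are 21, 19 and 22 nt. Both 3p entries begin alike, and miR-129-1-3p is the first 19 bases of miR-129-2-3p.

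The hairpins show where each arm lies, with the annotated mature arms in capitals.
Mir129-1: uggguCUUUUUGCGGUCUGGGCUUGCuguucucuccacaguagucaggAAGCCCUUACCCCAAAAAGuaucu
Mir129-2: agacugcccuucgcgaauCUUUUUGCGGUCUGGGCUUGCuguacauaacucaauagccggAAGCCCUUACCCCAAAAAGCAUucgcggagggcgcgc
Read on to 22 bases, the 3p arm of Mir129-1 differs from miR-129-2-3p at 1 base, C20U (counted from 1 at the 5′ end of miR-129-2-3p, whose base is given first). These 2 stretches are shown with the differing base in capitals.
Mir129-1, 22 bases: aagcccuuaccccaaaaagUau
miR-129-2-3p: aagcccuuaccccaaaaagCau
A read that ends before base 20 fits both loci. In GRCr8 the hairpins lie on different chromosomes, Mir129-1 between the named protein-coding genes Snd1 and Lep and Mir129-2 between Hsd17b12 and Ttc17. Coordinates are not given, since the submitters' processing notes name the older build rn5.

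Library totals ran from 2243412 to 4917929 counts in vehicle rats (median 3742254) and from 1960702 to 3598773 in ethanol rats (median 2752000). A count of 0 allows up to 3 counts, which is between 0.610 and 1.53 CPM (counts relative to a library total set to 1000000) in these libraries and covers counting error only. The tissue label was compared with neuronal miRNAs (miR-124-3p, miR-9a-5p, miR-128-3p, miR-138-5p and miR-137-3p), which do not separate the hippocampus from other brain regions. All 5 were read in every library, with a summed level of 33330 to 38460 CPM in vehicle and 30260 to 37850 CPM in ethanol rats. Choroid plexus miRNAs (miR-204-5p, miR-211-5p and miR-448-3p) summed to 28980 to 50270 CPM and 16520 to 70880 CPM, respectively, and muscle-type miRNAs to 128 to 1765 CPM and 112 to 1712 CPM. The muscle sum covers 5 miRNAs, and the muscle mean the 3 that passed the read filter (miR-1b, miR-133a-3p and miR-133b-3p, without miR-1-3p and miR-206-3p). The muscle mean had the largest difference between the groups of the 6 marker lists, -1.91 on the log2 scale for ethanol against vehicle (two-sided exact permutation p = 0.0828). Oligodendrocyte miRNAs (miR-219a-5p, miR-219a-2-3p and miR-338-3p) summed to 9332 to 17660 CPM in vehicle and 9827 to 19010 CPM in ethanol rats. Blood miRNAs (miR-451-5p, miR-144-3p, miR-223-3p and miR-142-5p) summed to 414 to 558 CPM and 290 to 701 CPM, respectively. Of these, miR-142-5p was highest (mean 310.5 CPM), and miR-486, also chosen, had no row of that name. Vascular miRNAs (miR-126a-3p, miR-143-3p and miR-145-5p) summed to 36710 to 46040 CPM and 30810 to 65560 CPM, with miR-143-3p highest (mean 46390 CPM).

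Of the 3 members, only miR-129-2-3p was read. miR-129-5p was listed at 0 in all 12 libraries, and so was miR-129-1-3p. Reads of miR-129-2-3p numbered 1600, 1273, 2027 and 1775 in vehicle rats 9, 10, 19 and 20. They numbered 1392, 1141, 891, 1019, 1380, 1153, 1289 and 1281 in ethanol rats 3, 4, 7, 8, 15, 16, 23 and 24. Each library therefore held at least 891 reads under the name miR-129-2-3p and none under the other 2 names.

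Set against the 3 counts that a listed 0 allows in a library, miR-129-2-3p was at least 297-fold higher than either other arm in the library with the fewest reads (ethanol rat 7) and at least 676-fold higher in the library with the most (vehicle rat 19). All 12 libraries had more than 3 reads of miR-129-2-3p. No test of this order is given, since both other arms were 0 in every library and a fixed floor in their place sets the direction. miR-129-5p and miR-129-1-3p could not be ordered. A 3p to 5p ratio, a ratio between the 3p loci and any change of these ratios with ethanol could not be measured, since 2 of the 3 terms were 0 throughout. Whether the zeros reflect absent molecules or reads that were not counted under these names cannot be told from the deposited counts, and the measurements that bear on it follow.

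Annotated length went with a listed 0. Of the 753 names, 688 matched a RefSeq mature sequence, and 149 of the 753 (19.8%) were listed at 0 in every library. Among the 42 mature miRNAs annotated at 17 to 19 nt, 41 were at 0 in all 12 libraries (97.6%), and the exception, miR-9b-5p, had 1 read in 1 library. miR-129-1-3p, at 19 nt, is 1 of these 41. At 20 nt the share was 12 of 38 (31.6%), and at 21 nt or more it was 82 of 608 (13.5%). The RNA had been gel-purified at 20 to 30 nt, and the part of that step in these zeros was not tested.

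**Figure D1:**
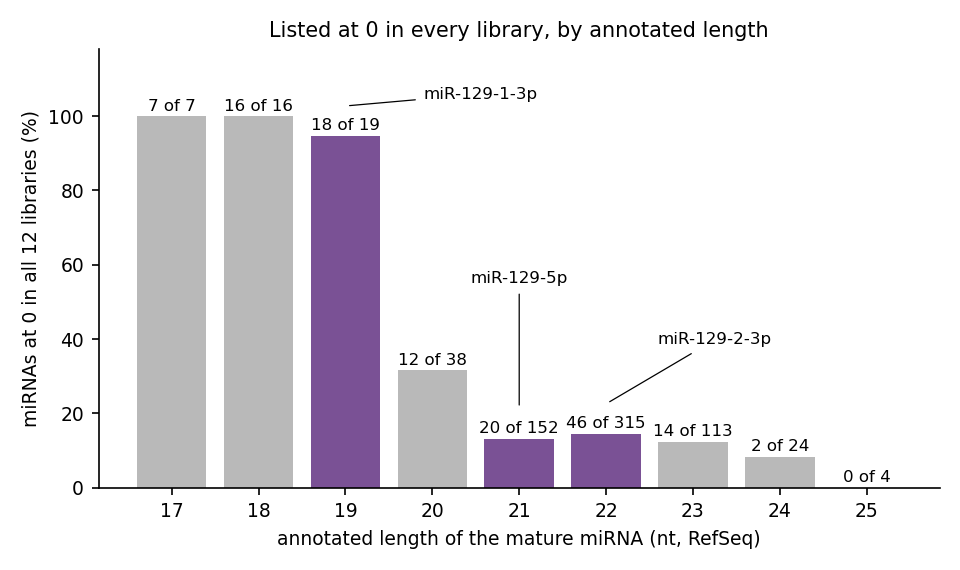
Share of listed mature miRNAs with 0 reads in all 12 libraries (vertical axis, %) by annotated length in RefSeq (horizontal axis, nt); purple bars hold the lengths of the miR-129 arms, and the counts above each bar give miRNAs at 0 of miRNAs listed. The 19 nt bar with miR-129-1-3p stands at 18 of 19, and the 21 nt bar with miR-129-5p at 20 of 152.

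A total of 3 listed miRNAs have a sequence that lies whole inside a longer listed one. miR-129-1-3p had 0 reads against 16221 summed over the 12 libraries for miR-129-2-3p, miR-299b-3p (17 nt) had 0 against 505 for miR-299a-3p, and miR-3084c-5p had 6 against 31 for miR-3084a-5p. The count of miR-129-2-3p was fractional in 1 of 12 libraries (vehicle rat 9) and whole in the others.

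miR-129-5p was in a minority of its length class. It is 21 nt long, and 20 of the 152 listed miRNAs of that length were at 0 in every library. It is also made from more than 1 hairpin, and of 27 such miRNAs only 3 were at 0 throughout (miR-129-5p, miR-295-5p and miR-9b-3p), while 19 had at least 1000 reads in all.

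Comparison with other miRNAs arranged in the same way places both zeros. In 19 miRNAs, miR-129 included, 1 arm is shared by loci 1 and 2 and the opposite arm has a name for each locus. The shared arm had reads in all 18 others, from 1225 for miR-19b-3p to 4978184 for miR-181a-5p, and was at 0 in miR-129 alone. The shared arm exceeded both locus arms in 17 of the 19, the exceptions being miR-129 and miR-219a, an oligodendrocyte miRNA whose 2-3p arm had 48335 reads against 8206 for the 5p arm.

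One locus arm at 0 beside a read one was less unusual. It occurred in 7 of the 19 (miR-103, miR-128, miR-129, miR-181a, miR-19b, miR-664 and miR-92a), and in 3 of these 7 the arm at 0 is annotated at 19 nt or less (miR-103-2-5p, miR-129-1-3p and miR-181a-2-3p). Where both locus arms averaged at least 10 reads per library, 10 miRNAs in all, locus 2 had more reads in 7 and locus 1 in 3. For instance, miR-24-2-5p had 10309 reads against 439 for miR-24-1-5p, and miR-7a-1-3p, of a miRNA known in neurons and endocrine cells, had 1901 against 794 for miR-7a-2-3p.

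**Figure D2:**
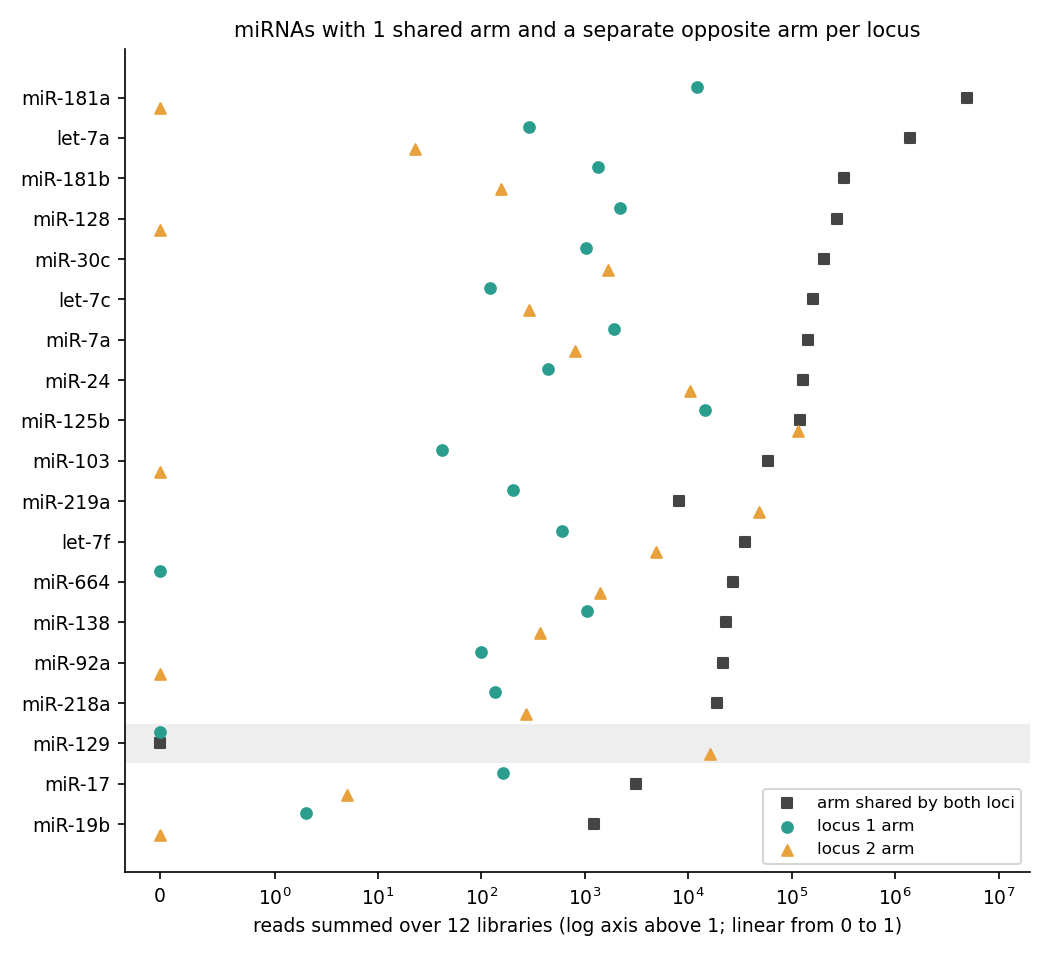
Reads summed over the 12 libraries (horizontal axis, logarithmic above 1 and linear from 0 to 1) for the 19 miRNAs with 1 arm shared by both loci (squares) and a separate opposite arm from locus 1 (circles) and locus 2 (triangles); the grey band marks miR-129. Only there does the square sit at 0, beside the circle, with miR-129-2-3p at 16221 reads.

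Hairpins with 1 arm at 0 were a minority among well-read ones. Of 286 hairpins with a 5p and a 3p row, 188 had at least 1000 reads on the higher arm, and the other arm was at 0 in 17 of them (9.04%). Mir129-2 ranked 7 of these 17 by reads of the higher arm, after Mir181a2, Mir211, Mir128-2, Mir100, Mir103a2 and Mir92a2. The arm at 0 was 19 nt or shorter in 6 and 21 nt or longer in 9, miR-129-5p among the latter. For Mir181a2, Mir128-2, Mir103a2, Mir92a2 and Mir19b2 the higher arm is shared by both loci, and its full count was used. The share of those reads that came from the named hairpin is not known. In the 171 hairpins with reads on both arms, the higher arm had a median of 45.7 times the reads of the lower. Set against 3 counts over all libraries, miR-129-2-3p had at least 5407 times the reads of miR-129-5p, a ratio that 13 of the 171 exceeded. Where a hairpin among the 171 has a shared arm, the full count of that arm likewise enters its ratio. Such ratios do not belong to 1 locus alone.

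miR-129-2-3p was a moderately abundant hippocampal miRNA. CPM values here are reads relative to the library total after scaling by TMM, edgeR's factor for unequal library composition, and are not adjusted for annotated length. Its level was 528, 542, 426 and 378 CPM in vehicle rats 9, 10, 19 and 20. In ethanol rats 3, 4, 7, 8, 15, 16, 23 and 24 it was 645, 486, 467, 412, 379, 405, 423 and 376 CPM. It ranked between 94 and 119 of the 753 listed miRNAs in every library, and 113 by its mean level. Ethanol rat 3 had the highest level of all 12 and ethanol rat 24 the lowest, with 1.71-fold between them.

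Over all 12 libraries its level varied more between rats than that of most miRNAs of like abundance. The coefficient of variation over the 12 libraries was 18.0%, against a median of 16.6% over all 420 retained miRNAs (those not under 10 reads in 10 or more libraries). Among the 52 miRNAs within 2-fold of its mean level, the median was 12.3% and 42 had a lower value. The value of 18.0% includes ethanol rat 3, at 645 CPM, with the next highest library at 542 CPM (vehicle rat 10). The coefficient was not computed without ethanol rat 3.

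The question put to these libraries was whether acute ethanol changed the miRNA profile of the hippocampus within 3 h. Vehicle rats averaged 468.5 ± 79.5 CPM of miR-129-2-3p (SD, n = 4), and ethanol rats averaged 449 ± 88.1 CPM (SD, n = 8). The groups overlapped, with 6 of 8 ethanol rats inside the vehicle range, 1 above and 1 below, and all 4 vehicle rats inside the ethanol range. The log2 fold change of ethanol against vehicle was -0.06 with a standard error of 0.15 (95% interval -0.38 to 0.26; edgeR's quasi-likelihood test, adjusted p = 0.987 over 420 miRNAs). As a linear ratio the interval ran from 0.768 to 1.20. The difference in mean log2 CPM was -0.07 (p = 0.685 in a two-sided exact permutation test with 495 arrangements of the group labels), which is within the spread between rats.

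**Figure D3:**
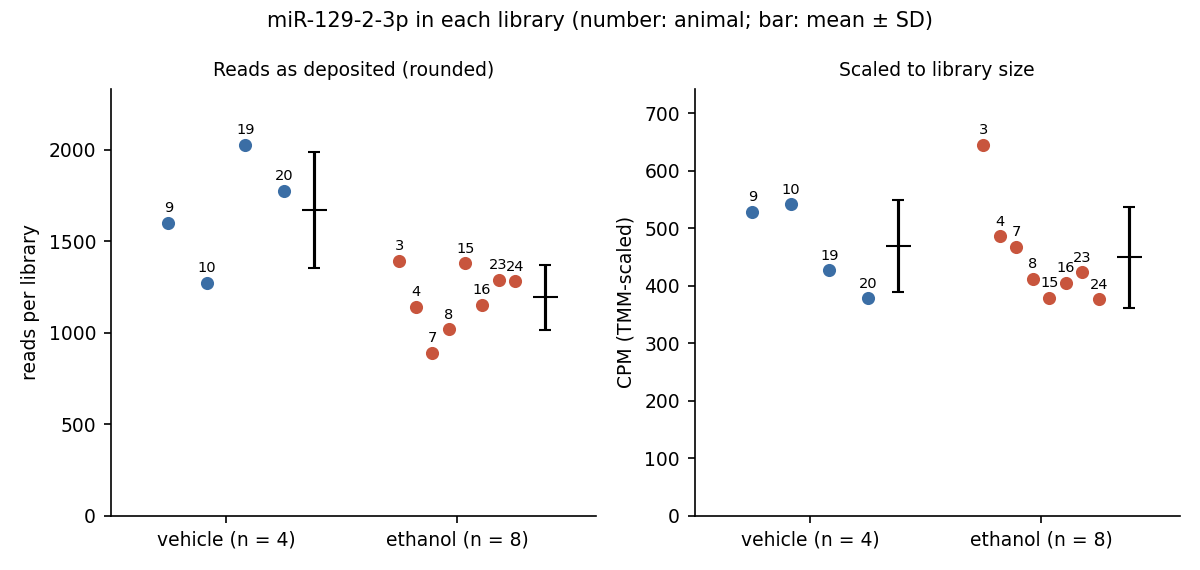
miR-129-2-3p in each library as rounded reads (left, reads per library) and as TMM-scaled CPM (right), with points numbered by animal and the mean ± SD of each group beside them (vehicle n = 4, ethanol n = 8). In CPM the groups overlap, from 378 to 542 in vehicle and from 376 to 645 in ethanol rats.

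No member of miR-129 was called by edgeR's quasi-likelihood test, and nor was any of the 420 retained miRNAs at an adjusted p under 0.05 (0%). A raw p under 0.05 was given to 17 of the 420 (4.05%), and miR-129-2-3p ranked 291 by raw p (0.687). DESeq2's Wald test called 1 of the 420, miR-133b-3p, and limma-trend called 0. The other 2 arms were below the filter and had nothing to test. Groups without overlap were found for 1 of the 420 (0.238%), which was not miR-129-2-3p. The sign of its fold change turned when vehicle rat 9 or vehicle rat 10 was left out (log2 fold change 0.00962 and 0.0160).

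Before scaling, ethanol libraries held fewer reads of miR-129-2-3p. The mean was 1669 ± 317 reads per vehicle library (SD, n = 4) and 1193 ± 176 reads per ethanol library (SD, n = 8), a difference in mean log2 reads of -0.48 (two-sided exact permutation test, p = 0.0121), with overlap between 1273 and 1392 reads. The mean log2 library total was lower by -0.38 in ethanol rats (two-sided exact permutation test, p = 0.156).

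miR-129-2-3p in CPM was lower in deeper libraries. The 5 libraries with the highest level (ethanol rat 3, vehicle rats 10 and 9, and ethanol rats 4 and 7) held 1960702 to 3018635 counts. Ethanol rats 8 and 16 had totals in the same range (2605437 and 2898038 counts) and lower levels, 412 and 405 CPM. Across the 12 libraries its log2 CPM and the log2 library total gave Pearson r = -0.66 (permutation p = 0.0197, adjusted p = 0.0787 over 4 relations) and Spearman rho = -0.66 (permutation p = 0.0235, adjusted p = 0.0939). Without the 2 libraries farthest from the median total, vehicle rats 19 and 20, r was -0.71. Within the 8 ethanol libraries r was -0.80, and with deviations from the group means it was -0.81. The library total is also the denominator of CPM, so both measures share it. Over all 420 retained miRNAs the median r with the library total was 0.02, and 12 other miRNAs were at or below the value of miR-129-2-3p. Its reads rose by 0.61 on the log2 scale for each log2 unit of library total.

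**Figure D4:**
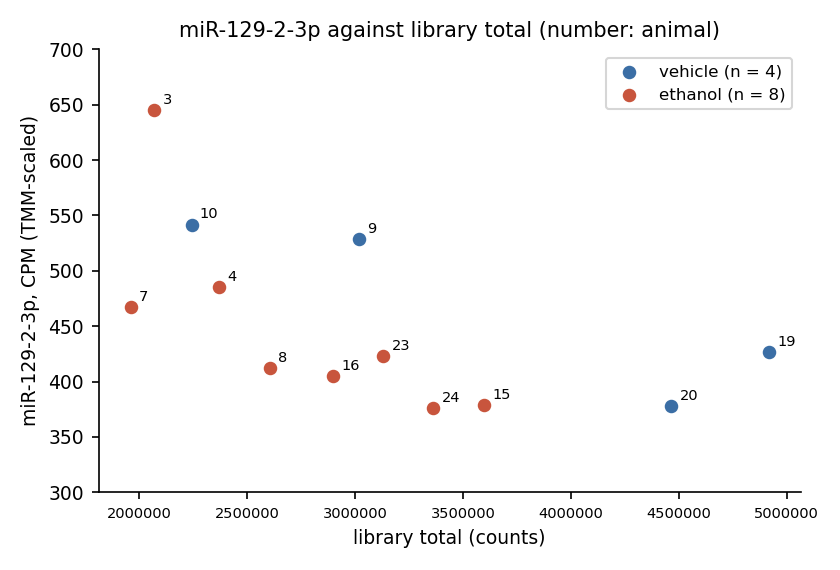
miR-129-2-3p (vertical axis, TMM-scaled CPM, drawn from 300) against library total (horizontal axis, counts), 1 point per library numbered by animal. Ethanol rat 3, with 2071128 counts, stands at 645 CPM, and vehicle rats 19 and 20, with 4917929 and 4465873 counts, stand at 426 and 378 CPM.

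Since the vehicle libraries were on the whole deeper, the fit was repeated with the log2 library total as a covariate. The log2 fold change of miR-129-2-3p was then -0.26 with a standard error of 0.11 (adjusted p = 0.995 in edgeR's quasi-likelihood test). In that fit 11 of 420 miRNAs, miR-129-2-3p among them, had a raw p under 0.05 (2.62%), and 0 of 420 had an adjusted p under 0.05 (0%).

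The other 3 relations computed in this family were with markers of cell types. Pearson's r of miR-129-2-3p was -0.28 with the neuronal mean (permutation p = 0.382, adjusted p = 0.51), -0.43 with the choroid plexus mean (permutation p = 0.16, adjusted p = 0.319) and -0.09 with the muscle mean (permutation p = 0.771). The Spearman values were -0.29 (permutation p = 0.357), -0.43 (permutation p = 0.167) and -0.12 (permutation p = 0.715). Without the 2 libraries farthest from the median of each marker mean, r was -0.06, -0.46 and 0.21, respectively. None of the 3 marker relations passed a p of 0.05. Ethanol rat 3, highest for miR-129-2-3p, had the lowest summed choroid plexus level of the 12 libraries, 16520 CPM, and the highest summed blood level, 701 CPM. The part of these markers in its level was not tested.

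The 3 miRNAs whose log2 CPM followed miR-129-2-3p most closely over the 12 libraries, of 357 with at least 10 reads in every library, were miR-376b-3p, miR-873-5p and miR-379-5p. Pearson's r was 0.83, 0.74 and 0.74 (permutation p = 0.0014, 0.00556 and 0.00597; adjusted p = 0.338 for each over the 357). Spearman's rho was 0.62, 0.64 and 0.54 (permutation p = 0.0358, 0.0277 and 0.0748; adjusted p = 0.898 for each). Without vehicle rat 10 and ethanol rat 3, the 2 libraries farthest from the median of miR-129-2-3p, r was 0.48, 0.46 and 0.27, over a range of miR-129-2-3p that their removal narrows. miR-376b-3p and miR-379-5p come from the large imprinted miRNA cluster of the Dlk1-Dio3 region. Their levels also ran against the library total (r = -0.71 for miR-376b-3p, -0.66 for miR-873-5p and -0.79 for miR-379-5p), a property shared with miR-129-2-3p.

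A list of 20 miRNAs known for roles in neurons, at synapses or in activity-dependent plasticity was read from the same fit. All 20 were retained, and 11 of them had a higher mean level than miR-129-2-3p (456 CPM). miR-218a-5p, a miRNA of motor and forebrain neurons, was closest above at 509 CPM, and miR-212-3p, transcribed with miR-132 downstream of CREB, was next below at 247 CPM. miR-132-3p, its partner, stood at 743 CPM. Of the 20, 16 had a negative and 4 a positive log2 fold change, with a median of -0.07 against -0.02 over the 420 retained miRNAs, of which 227 were negative and 193 positive. None passed edgeR's quasi-likelihood test (lowest adjusted p 0.971). A raw p under 0.05 was given to 1 of the 20, which is near the background of 4.05% over the 420 retained miRNAs. It was miR-134-5p, a dendritic miRNA that limits spine growth, and it was higher with ethanol (log2 fold change 0.302).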

How the data were processed

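For each of 12 rats the authors deposited a list of expected counts (estimated counts) of reads for 753 mature miRNAs, not scaled to library size. Per the labels, 1 µg of total RNA per rat was made into small RNA libraries; the methods give gel purification at 20 to 30 nt and 37 cycles on a MiSeq. The submitters' processing notes name cutadapt, Partek and rn5; the counting rule and miRNA annotation are not given in the sources used here. The labels name no sequencing batch. The methods state that libraries were pooled in sets of 8 for sequencing, and which of the 12 libraries shared a set is not given.

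Estimated counts were rounded. The filter dropped a miRNA if 10 or more libraries had under 10 reads of it (420 retained). The groups were compared with the quasi-likelihood test of edgeR (edgeR 4.0.16, R 4.3.3; TMM, no covariate, Benjamini-Hochberg); the test was also run on simulated counts. Alternatives used limma 3.58.1 and DESeq2 1.42.0. The log2 CPM used a prior count of 2. Single values were compared by exact permutation, and correlations used 100000 permutations (Python 3.11.15, scipy 1.17.1). The fold-change interval uses the t quantile at the fit's degrees of freedom and a standard error taken from its F statistic. Library totals ranged from 1960702 to 4917929. Each library is 1 rat.

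Named miRNAs were the 3 members, the 3 most correlated with a read member, listed activity-linked miRNAs with a raw p under 0.05, hairpins with locus-specific arms and markers; miRNAs at 0, miR-9b-5p, those contained in longer ones, miR-218a-5p, miR-212-3p, miR-132-3p and miR-133b-3p were named after their values were seen. Members and lists were chosen with earlier results of these data known. Planned tests of arm ratios were not run, since 2 arms were at 0. The planned test of the arms' order is not reported for the same reason.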

Additional observations from a re-analysis of the deposited data

Results flagged for a closer look

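Ethanol rat 3 was the highest of the 8 ethanol rats for miR-129-2-3p, with a gap to the next rat of 0.527 of the group's range on the log2 scale, which only narrowly passed Dixon's critical value. Without it, the log2 fold change of ethanol against vehicle was -0.12 (standard error 0.12; adjusted p = 0.991 in edgeR's quasi-likelihood test). The same rat was also marked as the highest value for miR-376b-3p (gap 0.532 of the range, 126.5 CPM) and miR-379-5p (0.729), both picked for their likeness to miR-129-2-3p, so the 3 values are not independent. A total of 10 groups were examined (miR-129-2-3p, its 3 likest miRNAs and the library total, in each treatment group), of which 3 were marked; chance marks about 1 in 20.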

How the results depend on the processing

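No paired analysis was possible because the vehicle and ethanol rats share no animal number. Arm ratios, their alternatives and correlations between arms could not be computed, since miR-129-5p and miR-129-1-3p were 0 under each setting. The log2 fold change of miR-129-2-3p was negative under 11 of 11 other normalizations, filters, tests and covariates (-0.26 to -0.03) and lay between -0.116 and 0.0160 with each rat left out, turning positive without vehicle rat 9 or 10; no adjusted p was under 0.917. The difference in mean log2 CPM lay between -0.164 and 0.00904 with each rat left out, turning positive without vehicle rat 10. Relative to the neuronal marker mean, a scaling chosen after seeing the data, it turned to 0.0668 (exact permutation p = 0.756). The neuronal mean itself differed by -0.133 on the log2 scale for ethanol against vehicle (exact permutation p = 0.127), more than miR-129-2-3p did (-0.07), which gives the turned sign. The cause of either difference was not tested. The correlation with the library total kept its sign in 3 of 3 other scalings and 12 of 12 leave-one-out sets (-0.73 to -0.59), also chosen after seeing the data, and its adjusted p fell to 0.034 with upper-quartile scaling (r = -0.72), against 0.0787. Over all retained miRNAs, the number with an adjusted p under 0.05 was 1 with DESeq2 (miR-133b-3p) and between 0 and 3 with each rat left out, 3 without ethanol rat 16 (the muscle-type miR-1b, miR-133a-3p and miR-133b-3p). At these depths a listed 0 allows up to 1.53 CPM, which covers counting error only.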
